A study of Homo sapiens with 12 samples.

Results

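Leukotrienes and prostaglandins are signalling lipids that cells make from arachidonic acid, and 10 genes of their synthesis and sensing were followed here among the 36041 genes of the deposited table. The 10 were picked by gene name: ALOX5, ALOX5AP, LTA4H, LTC4S and DPEP2 of the leukotriene branch, PTGS1, PTGS2, PTGDS and TBXAS1 of the prostaglandin and thromboxane branch, and PTGER4, a prostaglandin receptor. The sources used here do not say which values put DPEP2 and PTGDS among the 10. Their large increases in treated MOLM13 libraries were taken as the reason. The treatment values of MOLM13, and what is set against them, are therefore given for all members as a description, with no p printed. Whether MV411 values also served is not known, so the MV411 p-values of DPEP2 and PTGDS may not be independent of the choice. RNA sequencing compared MOLM13 and MV411, human acute myeloid leukaemia lines of the monocytic lineage with an internal tandem duplication in the receptor kinase gene FLT3. Each line received the solvent DMSO or SGI-7079, a small molecule that inhibits kinases, giving 4 groups of 3 libraries. The compound was given for 24 h at a dose of 10 nM, and the labels used here state no time for DMSO. The labels number the replicates as biosamples without saying whether they were separate cultures, so p-values measure the spread between these libraries, which may be technical.

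As background, the leukotriene branch starts when the enzyme 5-lipoxygenase, encoded by ALOX5, oxidises arachidonic acid that the membrane protein FLAP, encoded by ALOX5AP, presents to it. The product is either hydrolysed to leukotriene B4, an attractant of neutrophils, or joined to glutathione to give the cysteinyl leukotrienes, which contract airways and make vessels leak. In the other branch, the cyclooxygenases encoded by PTGS1 and PTGS2 make prostaglandin H2, which further enzymes turn into prostaglandins or thromboxane. Monocytes, macrophages and granulocytes are major sources of these lipids.

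The promoter windows of 3 members are printed because they belong to the members whose levels followed distinct patterns: PTGDS, among the members with the largest increase, LTC4S, with the largest excess in MV411, and PTGS2, the member that was lower in treated MOLM13. The sequences are RefSeq windows on GRCh38.p14, from 250 bases before to 50 bases after the annotated start, printed 5′ to 3′ on the gene's strand. They lie at chr9:136977254-136977553 (plus strand), chr5:179793736-179794035 (plus strand) and chr1:186680374-186680673 (minus strand). Capitals mark matches, on either strand, to 8 motifs. These were the TATA element (TATAAA), the GC box (GGGCGG), a C/EBP-type motif (TTGCNNAA), a cyclic AMP response half-site (TGACG), the E-box (CACGTG), a STAT-type motif (TTCNNNGAA), an ETS-type motif (GAGGAA) and a forkhead-type motif (TGTTTAC).
PTGDS: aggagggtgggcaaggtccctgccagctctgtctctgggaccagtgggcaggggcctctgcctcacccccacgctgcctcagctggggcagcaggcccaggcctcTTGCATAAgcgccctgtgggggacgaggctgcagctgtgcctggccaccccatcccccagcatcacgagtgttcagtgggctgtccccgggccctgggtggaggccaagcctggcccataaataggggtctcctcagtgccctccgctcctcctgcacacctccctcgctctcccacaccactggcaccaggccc
LTC4S: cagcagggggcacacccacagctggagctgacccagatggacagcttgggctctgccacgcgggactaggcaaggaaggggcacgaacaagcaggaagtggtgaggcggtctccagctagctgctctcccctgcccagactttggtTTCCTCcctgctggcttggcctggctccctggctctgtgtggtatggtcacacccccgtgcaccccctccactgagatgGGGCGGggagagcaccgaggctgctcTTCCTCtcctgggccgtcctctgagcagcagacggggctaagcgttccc
PTGS2: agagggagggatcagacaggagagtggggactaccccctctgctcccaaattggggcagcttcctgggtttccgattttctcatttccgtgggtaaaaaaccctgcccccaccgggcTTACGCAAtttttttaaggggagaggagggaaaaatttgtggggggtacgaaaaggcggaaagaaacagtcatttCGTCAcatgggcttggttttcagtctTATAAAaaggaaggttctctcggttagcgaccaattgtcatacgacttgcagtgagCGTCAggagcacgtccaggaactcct
Windows were found for 8 of the 10 members, and not for DPEP2 and ALOX5. The PTGS2 window held the TATA element, which 11.5% of 35116 windows of the same length hold, and the cyclic AMP half-site, which 24.6% hold. The PTGDS and PTGS2 windows both held the C/EBP-type motif, which 10.5% hold. The LTC4S window held the GC box, as 44.9% of windows do, and the ETS-type motif, as 27.9% do. None of the 3 printed windows held the E-box, the STAT-type or the forkhead-type motif, which 7.26%, 7.66% and 3.42% of windows hold. A match is a description of letters and not a bound site.

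The libraries held 52352252 to 61862017 counts, and 10 of 10 members passed the filter on low counts among 21438 genes tested. ALOX5 reached it through the treated libraries, where it was high, so its values are given with no p and it is left out of the counts of members that passed the test. Of 10 monocyte markers, 6 or 7 had a group mean over 1 CPM (counts scaled to library size by the trimmed mean of M-values, TMM) in each group. LYZ, the lysozyme gene, stood at 455 CPM in untreated MOLM13 and 1752 CPM in untreated MV411, while CD14 had group means of at most 0.257 CPM and CD163 was at 0 in MV411. ITGAM and VCAN ran the other way between the untreated lines, at 13.5 and 1.95 CPM in MOLM13 and 5.73 and 0.106 CPM in MV411. With treatment, 3 of the 9 monocyte markers tested rose in each line (adjusted p under 0.05), namely CSF1R, CD68 and ITGAM. Another 3 fell in each, namely LYZ and S100A9 in both, VCAN in MOLM13 and FCGR1A in MV411. Of all tested genes, 23.2% rose and 23.6% fell in MOLM13 by this threshold, and 27.2% and 24.3% in MV411, so these counts are no sign of a marker response. Treated libraries had more genes with at least 10 counts (18923 to 19366 against 18096 to 18194 in MOLM13, and 19884 to 20227 against 18826 to 18955 in MV411) and more mitochondrial ribosomal RNA (0.917 to 0.954% of counts against 0.516 to 0.544%, and 0.815 to 0.867% against 0.398 to 0.41%). The part of these shifts in the results below was not tested. In bulk samples, fewer cells that express a gene and less of its RNA per cell cannot be told apart.

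In MV411, 8 of the 9 members other than ALOX5 rose with SGI-7079 and 0 fell, by the quasi-likelihood test of edgeR with adjustment over all genes. PTGDS, DPEP2, PTGS1 and LTC4S more than doubled in mean CPM, LTA4H, TBXAS1, PTGER4 and PTGS2 rose less, and ALOX5AP did not pass the test. The threshold for a rise or fall was an adjusted p under 0.05, which 27.2% of all tested genes passed upward and 24.3% downward. The median log2 fold change was 0.92 over these 9 genes, against 0.114 over all genes. Without DPEP2 and PTGDS, which were taken to have been picked for large increases in MOLM13, 6 of 7 rose, with a median of 0.69. In MOLM13, 8 of the 9 members other than ALOX5 were higher with treatment by the same threshold and 1, PTGS2, was lower. Without DPEP2 and PTGDS, 6 of 7 were higher and 1 was lower, with a median log2 difference of 0.50. These counts are only a description and no test, because that contrast was taken as the one that chose members. Of all tested genes, 23.2% rose and 23.6% fell in that line by the threshold.

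**Figure D1:**
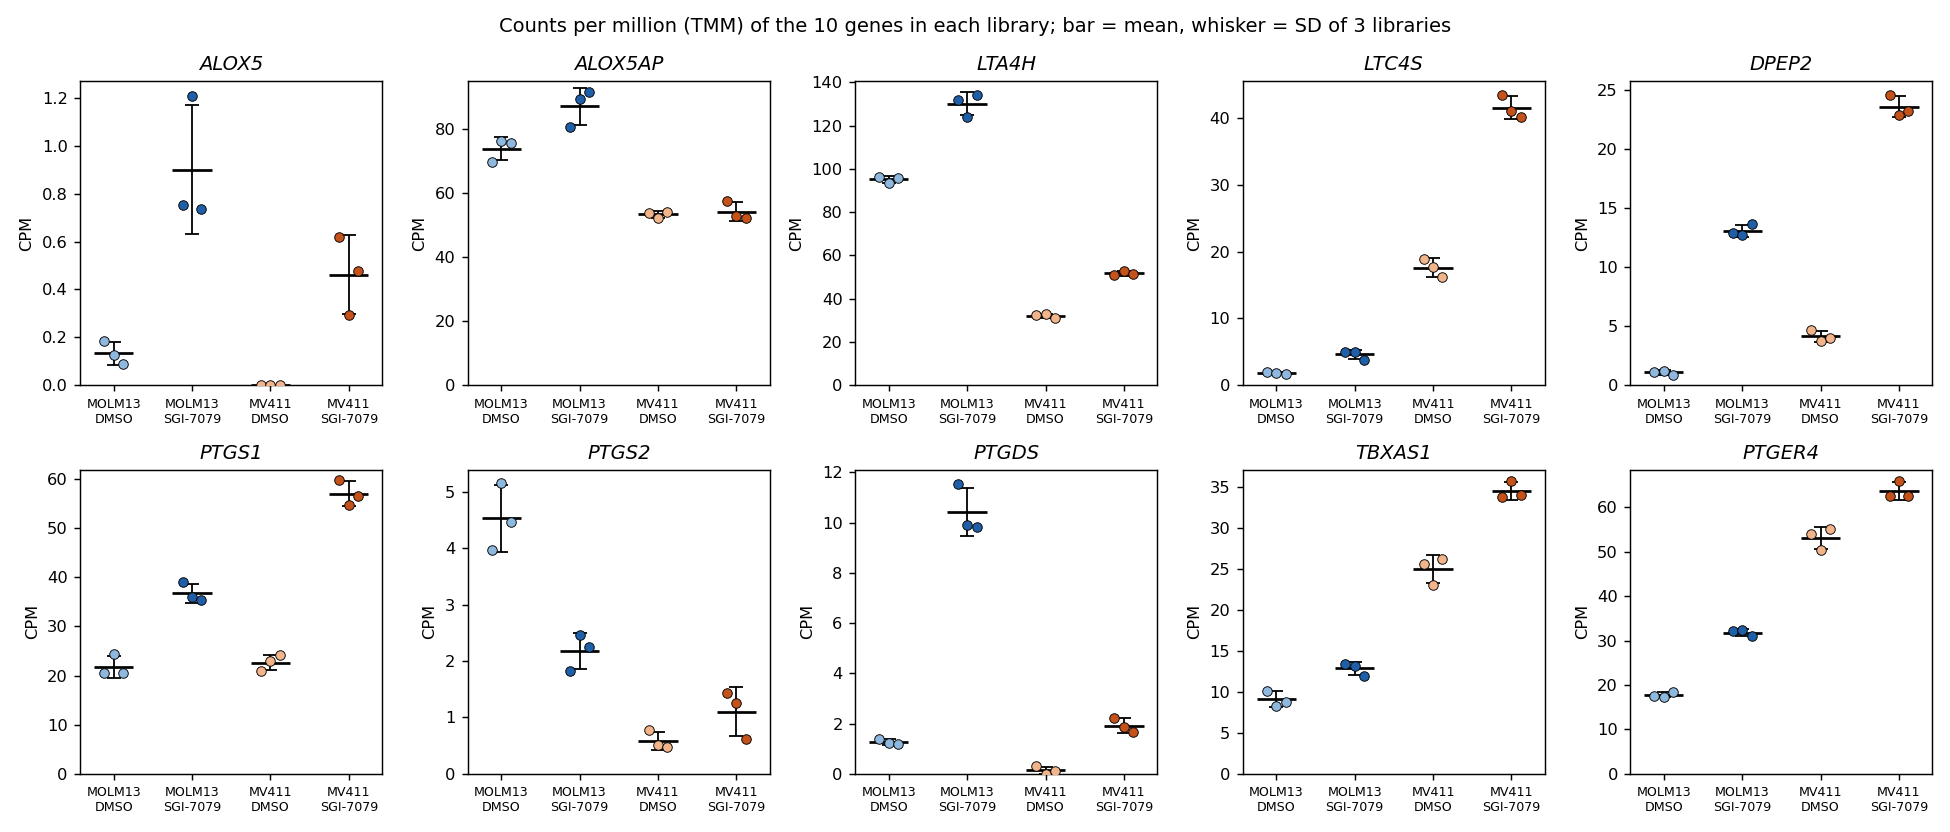
CPM of each gene (vertical axis, linear from 0) in each library of the 4 groups, with points for libraries, a bar for the mean and a whisker for the SD of 3 libraries. PTGS2 is lower in treated MOLM13 and overlaps in MV411, and ALOX5AP overlaps in MV411. Treated libraries of the other genes sit above their controls in both lines. The share of all genes with such separation was not computed.

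The first step of leukotriene synthesis was carried by very unequal RNAs. ALOX5 (ENSG00000012779, hg38 chromosome 10, 45374216 to 45446117) had 0 counts in each of the 3 untreated MV411 libraries and 40, 18 and 27 counts in the treated ones, or 0.618, 0.292 and 0.478 CPM. Each treated library was above each control. Against the upper limit of 3 counts that 0 counts allow over the group, the treated level was at least 27.6-fold higher. That limit covers the counting error of the controls only, and the treated counts are taken as they stand. In MOLM13, ALOX5 went from 10, 7 and 5 counts to 43, 74 and 40, or from 0.184, 0.127 and 0.088 CPM to 0.752, 1.21 and 0.737 CPM, without overlap. The MOLM13 log2 fold change was 2.74 ± 0.53 (SE, n = 3 per group). Even after treatment ALOX5 was the lowest of the 10 genes per length in both lines, at 0.216 ± 0.070 and 0.117 ± 0.042 FPKM (a level per length and depth, the authors' values; SD, n = 3). In treated MV411 its range overlapped that of PTGS2.

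ALOX5AP (ENSG00000132965, chromosome 13, 30713478 to 30764426), whose product FLAP hands the substrate to 5-lipoxygenase, was by contrast abundant throughout. It stood at 69.8, 76.3 and 75.6 CPM in untreated MOLM13 and at 80.6, 89.3 and 91.6 CPM in treated MOLM13, without overlap and with a log2 difference of 0.24 ± 0.05. In MV411 it stood at 53.6, 52.1 and 54.2 CPM without and at 57.6, 53.0 and 52.1 CPM with the compound. The MV411 groups overlapped, and the log2 fold change of 0.02 ± 0.06 did not pass the test (adjusted p = 0.746). Its sign turned with no filter on low counts, in the fit of MV411 alone and without single libraries.

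Downstream, the product of 5-lipoxygenase meets enzymes that compete for it, and the lines differed in which of their RNAs was higher per length. LTA4H (ENSG00000111144, chromosome 12, 96000753 to 96035641) encodes the hydrolase that makes leukotriene B4. It stood at 96.2, 93.2 and 95.8 CPM in untreated MOLM13 and at 32.2, 32.9 and 30.8 CPM in untreated MV411. MV411 was thus lower by a log2 difference of -1.57 ± 0.04 (adjusted p = 1.17e-12). LTC4S (ENSG00000213316, chromosome 5, 179793980 to 179796647), the synthase that makes the first cysteinyl leukotriene, went the other way, at 1.99, 1.79 and 1.67 CPM in untreated MOLM13 and 18.9, 17.8 and 16.1 CPM in untreated MV411. That difference was 9.69-fold, or 3.28 ± 0.12 in log2 (adjusted p = 6.07e-11). No library of one line overlapped the other for either gene. Per length, LTA4H exceeded LTC4S in untreated MOLM13 with an FPKM ratio of 8.69 ± 0.78 (SD, n = 3), and LTC4S exceeded LTA4H in untreated MV411 with a ratio of 3.42 ± 0.21. In CPM, LTA4H stood above LTC4S in each of the 4 groups, so the order in MV411 rests on the lengths used. The annotated exons together cover 7405 bases for LTA4H and 1192 for LTC4S.

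Treatment moved both competing genes upward. In MV411, LTC4S reached 43.5, 41.2 and 40.2 CPM, a rise of 1.24 ± 0.11 in log2 (adjusted p = 2.99e-07). LTA4H reached 50.8, 52.6 and 51.3 CPM, a rise of 0.69 ± 0.04 (adjusted p = 4.20e-09). Treated and control libraries were fully apart for both. In MOLM13, LTC4S stood at 4.97, 5.01 and 3.78 CPM after treatment, a log2 difference of 1.34 ± 0.12, and LTA4H at 131.7, 124.0 and 134.3 CPM, a difference of 0.45 ± 0.04. The FPKM ratio of LTC4S to LTA4H was 0.218 ± 0.040 in treated MOLM13 against 0.116 ± 0.010 without treatment, and 5.02 ± 0.26 in treated MV411. The treated ratios of each line lay above all of its control ratios, and LTA4H stayed the higher of the pair in MOLM13. Of the 5 mast cell and basophil markers, cells in which LTC4S is also known, 4 were analysed here. They summed to 18.4 to 20.6 CPM in untreated and 6.58 to 8.71 CPM in treated MOLM13, and to 5.30 to 5.65 and 2.28 to 3.11 CPM in MV411, with HDC at 0 in both treated groups. The transcription factor gene GATA2 carried these sums, at 19.0 and 7.52 CPM in untreated and treated MOLM13 and 4.23 and 1.02 CPM in MV411. TPSAB1, a mast cell tryptase gene, had means of at most 0.371 CPM, and MS4A2 stood at 1.14 and 1.30 CPM in untreated and treated MV411. Their part in the LTC4S values was not tested.

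DPEP2 (ENSG00000167261, chromosome 16, 67987394 to 68000586) encodes a membrane dipeptidase that trims leukotriene D4 to leukotriene E4. In MV411 it rose from 4.67, 3.69 and 3.96 CPM to 24.5, 22.9 and 23.2 CPM, a 5.73-fold change and 2.52 ± 0.13 in log2 (adjusted p = 1.16e-09). In MOLM13 it went from 1.12, 1.19 and 0.863 CPM to 12.8, 12.7 and 13.6 CPM, or 12.3-fold, the value taken as the reason for its choice. Every treated library was above every control in both lines, and treated MOLM13 libraries were above the untreated MV411 ones. The log2 change was 1.10 ± 0.18 smaller in MV411 than in MOLM13, given here as a description because the MOLM13 change was taken to have chosen the gene. ENSG00000289618, annotated as an antisense transcript of DPEP2, went from 1, 3 and 7 counts to 36, 71 and 68 in MV411 (3.93 ± 0.66 in log2). Like ALOX5, this transcript reached the filter on low counts through the treated libraries, where it was high, so no p is given. In MOLM13 it went from 4, 6 and 15 counts to 29, 52 and 35. No source used here says whether counting used the strand, so reads of the 2 genes cannot be told apart. DUS2, which overlaps DPEP2 on the opposite strand, fell in MV411 by 0.36 ± 0.09 in log2 (adjusted p = 0.00287).

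**Figure D2:**
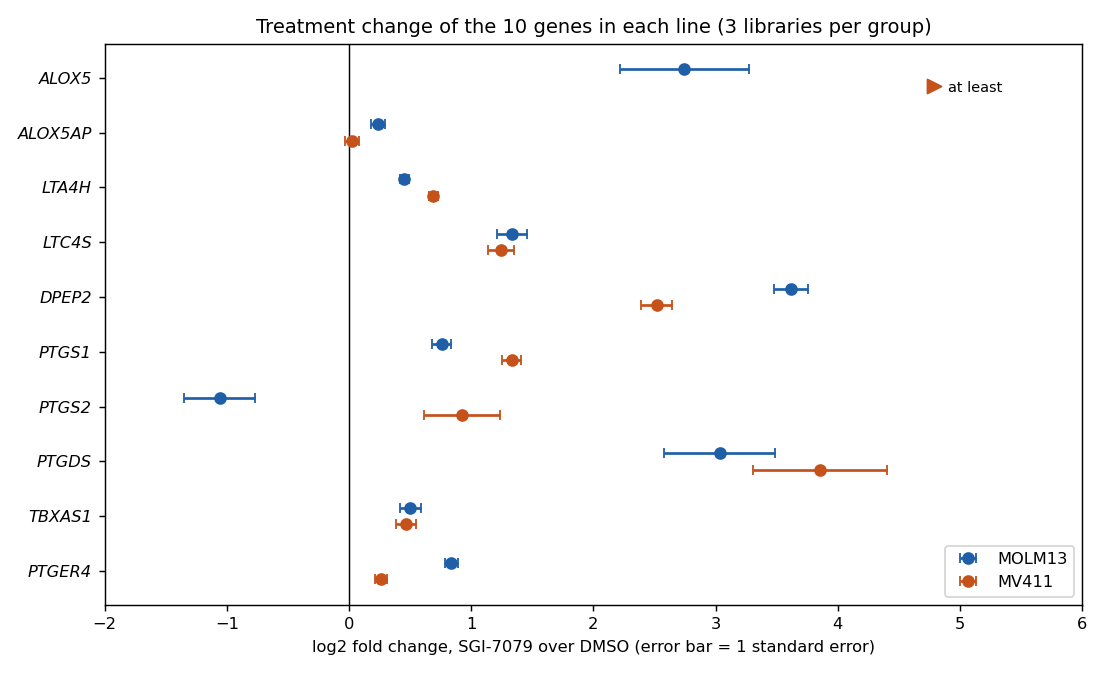
Log2 fold change of SGI-7079 over DMSO (horizontal axis) for each gene in MOLM13 and MV411, with error bars of 1 SE. An arrowhead marks ALOX5 in MV411, where the control group had 0 counts and only a lower bound can be given. That bound, 4.78, takes the treated counts as they stand. PTGS2 lies on opposite sides of 0 in the lines, and the other genes lie at or above 0 in both.

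Among the cyclooxygenases, PTGS1 was the main RNA in both lines. PTGS1 (ENSG00000095303, chromosome 9, 122370530 to 122395703) encodes the constitutive enzyme known from platelets and stomach lining. Untreated, it stood at 20.4, 24.3 and 20.5 CPM in MOLM13 and at 20.9, 22.9 and 24.1 CPM in MV411, which overlapped and did not pass the test (log2 difference 0.06 ± 0.08, adjusted p = 0.554). In MV411 it rose to 59.9, 54.7 and 56.6 CPM, by 1.33 ± 0.08 in log2 (adjusted p = 5.63e-09). In treated MOLM13 it stood at 39.0, 35.9 and 35.4 CPM, a log2 difference of 0.76 ± 0.08. Both treated groups were clear of their controls. The log2 change was larger in MV411 by 0.58 ± 0.11, a description because it rests on the MOLM13 contrast.

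PTGS2 (ENSG00000073756, chromosome 1, 186671791 to 186680423), the cyclooxygenase induced in inflammation, was scarce and was the member without a shared direction. In untreated MOLM13 it stood at 3.96, 5.16 and 4.47 CPM, and in treated MOLM13 at 1.82, 2.46 and 2.25 CPM, without overlap, a log2 difference of -1.06 ± 0.29. In MV411 it stood at 0.770, 0.501 and 0.476 CPM without and 1.44, 1.25 and 0.619 CPM with the compound. The treated replicate 3 fell among the controls, and the rise of 0.92 ± 0.31 in log2 (adjusted p = 0.0236) was lost without MV411 DMSO replicate 2 or 3 or MV411 SGI-7079 replicate 1 or 2 (adjusted p 0.0708 to 0.110). It was also lost in a fit of the MV411 libraries alone (adjusted p = 0.0848), with no filter on low counts (adjusted p = 0.0612) and on log2(FPKM + 1) with limma (adjusted p = 0.0908). Untreated MV411 had less PTGS2 than untreated MOLM13, by -2.96 ± 0.32 in log2 (adjusted p = 2.55e-06), with no overlap. The FPKM ratio of PTGS1 to PTGS2 was 4.58 ± 0.28 in untreated MOLM13, 16.5 ± 3.4 in treated MOLM13, 40.2 ± 12.3 in untreated MV411 and 57.7 ± 29.4 in treated MV411 (SD, n = 3). The last pair of groups overlapped in this ratio.

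PTGDS (ENSG00000107317, chromosome 9, 136975092 to 136981742) encodes the lipocalin-type prostaglandin D synthase, an enzyme best known from brain and testis. Its MV411 libraries had 17, 0 and 6 counts without and 144, 115 and 93 counts with the compound, or 0.297, 0 and 0.099 CPM against 2.23, 1.86 and 1.65 CPM. The groups did not overlap, and the rise was 3.85 ± 0.55 in log2 (adjusted p = 4.13e-05). Its size is uncertain: it was 5.21 without MV411 DMSO replicate 1 (adjusted p = 4.26e-06) and 3.27 without MV411 DMSO replicate 2 (adjusted p = 6.53e-06). With limma the rise was 2.53 on log2(FPKM + 0.1) and 0.69 on log2(FPKM + 1) (adjusted p = 1.91e-06 and 5.40e-06). In MOLM13 PTGDS went from 1.40, 1.21 and 1.20 CPM to 11.5, 9.89 and 9.83 CPM, the 8.19-fold change taken as the reason for its choice. Untreated MOLM13 libraries were all above the untreated MV411 ones, given as a description for the same reason.

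TBXAS1 (ENSG00000059377, chromosome 7, 139777051 to 140020325), the thromboxane synthase of platelets and macrophages, was higher in MV411 than in MOLM13 with and without the compound. Untreated, it stood at 10.2, 8.32 and 8.77 CPM in MOLM13 and at 25.7, 23.1 and 26.3 CPM in MV411, a log2 difference of 1.46 ± 0.09 (adjusted p = 7.16e-09). In MV411 it rose to 33.8, 35.8 and 34.1 CPM, by 0.47 ± 0.08 in log2 (adjusted p = 3.54e-04), and in treated MOLM13 it stood at 13.4, 13.2 and 11.97 CPM, a difference of 0.50 ± 0.09. The groups of each line did not overlap. The 3 megakaryocyte and platelet markers with counts, GP9, GP1BA and ITGA2B, summed to 3.13 to 4.38 CPM in untreated and 6.35 to 7.28 CPM in treated MOLM13. The same sum was 13.1 to 14.1 CPM in untreated and 29.0 to 31.7 CPM in treated MV411, with ITGA2B at 0 in untreated MOLM13. The members of this sum differed in direction: GP1BA rose in both lines (1.61 ± 0.24 and 1.25 ± 0.24 in log2, adjusted p = 8.31e-05 and 5.84e-04) and ITGA2B rose in MV411 (1.17 ± 0.36, adjusted p = 0.0168). GP9 fell in MOLM13, from 2.02 to 0.777 CPM (-1.38 ± 0.38, adjusted p = 0.00830), and stood at 0.271 and 0.188 CPM in MV411. Their part in the values of PTGS1 and TBXAS1 was not tested. HIPK2, which overlaps the first bases of TBXAS1 on the opposite strand, rose in MV411 by 1.10 ± 0.12 in log2 (adjusted p = 3.37e-06) and stood at -0.04 ± 0.12 in MOLM13.

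PTGER4 (ENSG00000171522, chromosome 5, 40679915 to 40693735), the receptor EP4 through which prostaglandin E2 raises cyclic AMP, was among the more abundant members. It stood at 17.5, 17.4 and 18.5 CPM in untreated MOLM13 and at 54.0, 50.4 and 55.1 CPM in untreated MV411, a 2.98-fold difference (1.58 ± 0.05 in log2, adjusted p = 1.24e-11). In MV411 it rose to 62.5, 66.0 and 62.6 CPM, by 0.26 ± 0.05 (adjusted p = 4.03e-04). In treated MOLM13 it stood at 32.1, 32.4 and 31.0 CPM, a difference of 0.84 ± 0.05, and the log2 change was 0.58 ± 0.07 smaller in MV411, again a description. Treated MOLM13 thus remained below untreated MV411. The pseudogenes PTGER4P2 and PTGER4P3 had 0 to 4 counts per library, and the read-through pseudogene PTGER4P2-CDK2AP2P2 had 0 to 59. TTC33, which spans PTGER4 on the opposite strand, had 593 to 1102 counts per library and did not pass the test in MOLM13 (-0.29 ± 0.13, adjusted p = 0.0867) or MV411 (-0.24 ± 0.13, adjusted p = 0.149). The other transcripts that overlap members, at LTA4H, PTGS1, PTGDS and ALOX5, had at most 20 counts in any library.

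The order of levels per length differed between the lines and shifted with treatment. In untreated MOLM13 the order by FPKM was ALOX5AP (38.3 ± 2.2), LTA4H (11.2 ± 0.1), PTGER4 (4.36 ± 0.16), PTGS1 (3.27 ± 0.36), LTC4S (1.29 ± 0.11), TBXAS1 (1.27 ± 0.13), PTGS2 (0.716 ± 0.099), PTGDS (0.393 ± 0.032), DPEP2 (0.252 ± 0.038) and ALOX5 (0.026 ± 0.010; SD, n = 3). Only LTC4S and TBXAS1 overlapped as neighbours there. In untreated MV411, ALOX5AP (29.3 ± 0.4) was followed by PTGER4 (13.8 ± 0.5) and LTC4S (13.6 ± 1.2), which overlapped each other, and then by LTA4H, TBXAS1 and PTGS1 at 3.98 to 3.61 FPKM, each overlapping the next. DPEP2 followed at 1.07 ± 0.14, and PTGS2 and PTGDS, which overlapped, at 0.095 ± 0.028 and 0.040 ± 0.046. ALOX5 was listed at 0. In treated MV411, LTC4S (34.8 ± 1.1) headed the order just above ALOX5AP (32.2 ± 1.4), and their libraries did not overlap. In treated MOLM13, PTGDS (3.54 ± 0.32), LTC4S (3.52 ± 0.57) and DPEP2 (3.44 ± 0.12) stood together, with overlap, below PTGS1 (5.87 ± 0.31).

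**Figure D3:**
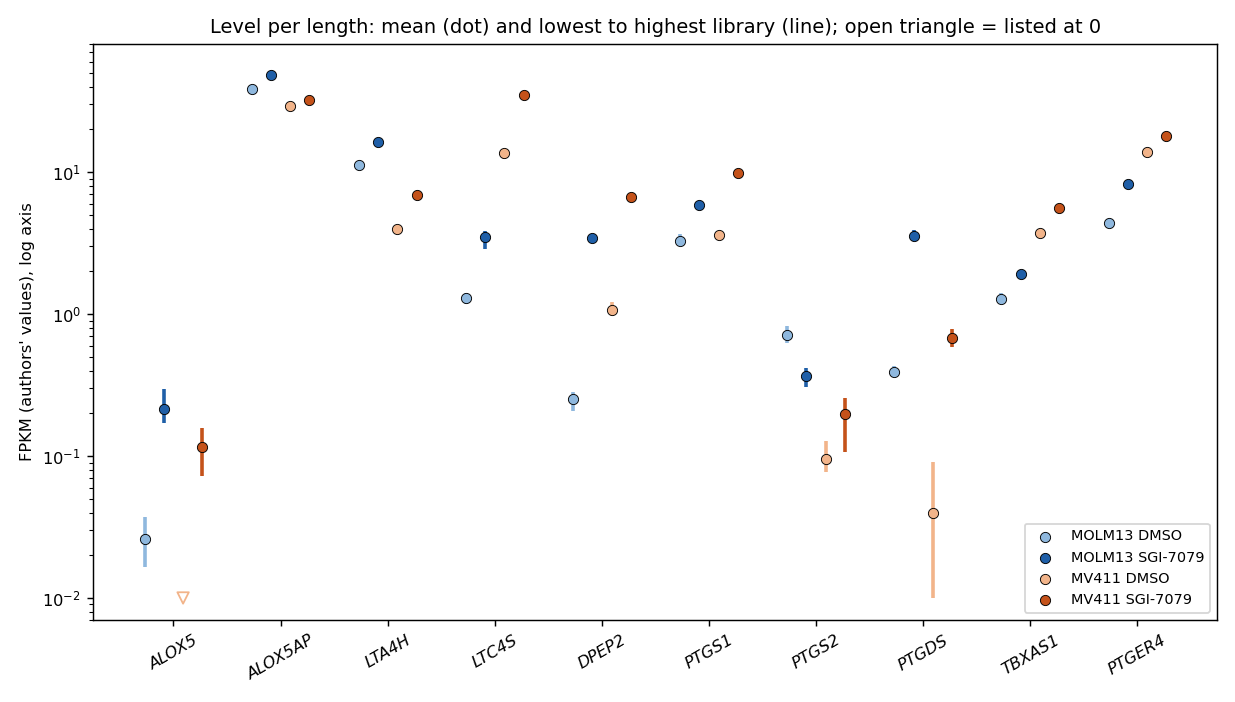
FPKM of each gene on a log axis, with dots for the mean and lines from the lowest to the highest of 3 libraries in each of the 4 groups. An open triangle marks a group listed at 0, and the line of PTGDS in untreated MV411 ends at the triangle's height because 1 library was listed at 0. LTC4S lies above LTA4H in MV411 and below it in MOLM13, and ALOX5AP lies far above ALOX5 in all groups.

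Between the untreated lines, 3 of the 7 members other than DPEP2, PTGDS and ALOX5 were higher in MV411 and 3 were lower, against 27.7% of all tested genes higher and 26.5% lower. LTC4S, PTGER4 and TBXAS1 were higher, and LTA4H, PTGS2 and ALOX5AP were lower. ALOX5AP differed by -0.47 ± 0.06 in log2 (adjusted p = 5.92e-06). ALOX5 had 22 counts over the untreated MOLM13 libraries and 0 in MV411, at least 7.84-fold lower by the same limit on 0 counts. The 22 counts are taken as they stand, without their counting error.

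Across the 12 libraries, the genes most like DPEP2 in log2 CPM, among 11166 genes of at least 5 CPM in some group, were WDFY2, MXD4 and LINGO3 (Pearson r = 0.997, 0.992 and 0.991). Those most like PTGDS were STX10, CAPG and FRRS1 (r = 0.987, 0.975 and 0.971), and among those most like ALOX5 were the mitochondrial tRNA gene MT-TF and LY75 (r = 0.984 each). The 12 points fall into 4 groups, so these values describe a shared pattern of group means.

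Of 45 other genes of eicosanoid release, synthesis, breakdown and sensing, 41 were analysed here and 32 passed the filter. In MOLM13, 8 rose, 7 fell and 17 did not pass the test (median log2 fold change 0.01). In MV411, 11 rose, 8 fell and 13 did not pass (median 0.11). Both shares can be read against the 23.2% and 23.6%, and the 27.2% and 24.3%, of all genes. Of the phospholipases that release arachidonic acid, PLA2G6 rose in both lines, by 0.99 ± 0.10 (adjusted p = 1.74e-06) and 1.26 ± 0.10 (adjusted p = 9.82e-08). PLA2G4A, the cytosolic enzyme most tied to eicosanoids, stood at -0.03 ± 0.06 in MOLM13 (adjusted p = 0.693) and fell by 0.17 ± 0.06 in MV411 (adjusted p = 0.0270).

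Among receptors, CYSLTR1, which binds cysteinyl leukotrienes, rose in both lines. Its mean was 25.3 CPM without and 36.1 CPM with the compound in MOLM13 (0.51 ± 0.06 in log2, adjusted p = 1.17e-05). In MV411 it was 19.9 and 42.0 CPM (1.08 ± 0.06, adjusted p = 5.39e-09). The increase was larger in MV411 by 0.56 ± 0.09 (adjusted p = 4.80e-04), and 8.85% of all genes had a higher change in MV411 by this test and 11.8% a lower one. OXER1, a receptor for an oxidised product of 5-lipoxygenase, rose by 1.42 ± 0.25 (adjusted p = 3.57e-04) and 1.84 ± 0.23 (adjusted p = 1.17e-05). TBXA2R, the thromboxane receptor, fell in MV411 by 1.83 ± 0.60 (adjusted p = 0.0209), from 19, 29 and 33 counts to 11, 0 and 12, and this was lost without MV411 DMSO replicate 3 (adjusted p = 0.0599), in a fit of MV411 alone (adjusted p = 0.108) and on log2(FPKM + 1) with limma (adjusted p = 0.368). In MOLM13 it stood at -1.09 ± 0.45 (adjusted p = 0.0656) and passed without MV411 SGI-7079 replicate 2 (adjusted p = 0.00538), with DESeq2 (adjusted p = 0.00561), in a fit of MOLM13 alone (adjusted p = 0.00603) and with limma on log2(FPKM + 0.1) and log2(FPKM + 1) (adjusted p = 0.0135 and 0.00157). Treated libraries lay below their controls in both lines.

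PTGES3, a cochaperone also described as a prostaglandin E synthase, fell in both lines. It stood at 653 CPM without and 471 CPM with the compound in MOLM13 (-0.47 ± 0.03 in log2, adjusted p = 6.48e-09), and at 475 and 236 CPM in MV411 (-1.01 ± 0.03, adjusted p = 2.40e-12). PTGR1, which inactivates prostaglandins and leukotriene B4, fell in MOLM13 by 1.22 ± 0.35 (adjusted p = 0.0115) and stood at -0.28 ± 0.31 in MV411 (adjusted p = 0.484). The MOLM13 call was lost in a fit of MOLM13 alone (adjusted p = 0.0514) and on log2(FPKM + 1) with limma (adjusted p = 0.0530). GGT5, which turns leukotriene C4 into leukotriene D4, fell in MOLM13 by 2.34 ± 0.74 (adjusted p = 0.0185), from 26, 41 and 60 counts to 0, 26 and 0. Without MOLM13 DMSO replicate 3 this was lost (adjusted p = 0.0666), as with DESeq2 (adjusted p = 0.0767), in a fit of MOLM13 alone (adjusted p = 0.118) and on log2(FPKM + 1) (adjusted p = 0.122), and without MOLM13 SGI-7079 replicate 2 the treated group was at 0. In MV411 it stood at -0.52 ± 0.51 (adjusted p = 0.426), and fell by 0.60 without MOLM13 SGI-7079 replicate 2 (adjusted p = 0.0310), by 0.58 in a fit of MV411 alone (adjusted p = 0.00122) and by 0.26 on log2(FPKM + 1) with limma (adjusted p = 0.00237).

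**Figure D4:**
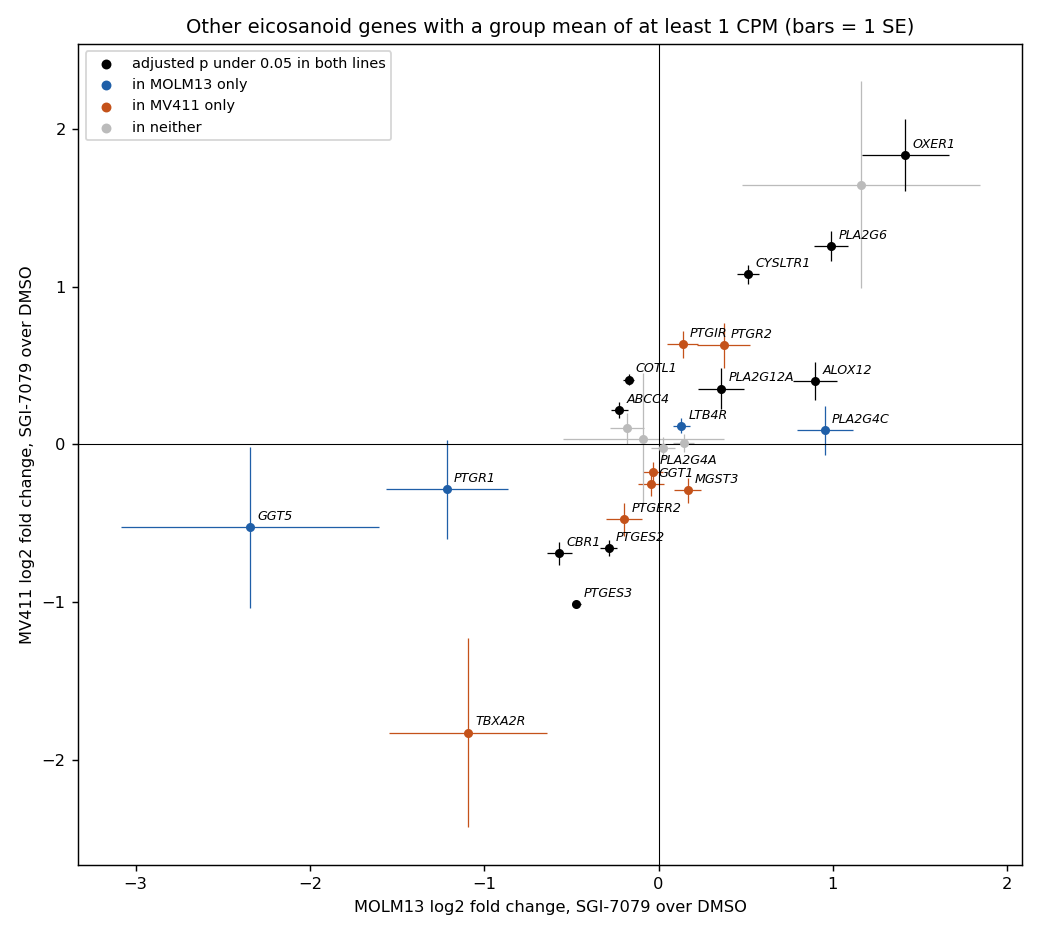
Log2 fold change in MOLM13 (horizontal) against MV411 (vertical) for the other eicosanoid genes with a group mean of at least 1 CPM, with bars of 1 SE and colours for the lines in which the adjusted p was under 0.05. PLA2G6, CYSLTR1 and OXER1 lie to the upper right, and PTGES3 lies to the lower left.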

How the data were processed

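RNA was measured by poly(A)-selected, strand-marked sequencing of 12 libraries, and groups were taken from the sample titles. Per the submitters' processing notes, the tools included HISAT2 2.2.1 and cutadapt 1.9 besides StringTie 2.1.6, with hg38 as the build, and the design text names featureCounts for counting. The strand setting and the handling of multi-mapping reads: not given in the sources used here. Raw counts and FPKM of each gene in each library are the values the authors deposited. Counts (52352252 to 61862017 per library) were tested with edgeR 4.0.16 in R 4.3.3: TMM scaling, filterByExpr with a minimum count of 10 (21438 genes), 1 mean per group over 12 libraries, the quasi-likelihood test, and Benjamini-Hochberg adjustment over all tested genes. Standard errors were derived from the F statistic of each contrast. The authors' FPKM ordered genes by level. The tests were run on simulated data first. Members, lists and tests were chosen with earlier results of these data known. Of the other eicosanoid genes, those with an adjusted p under 0.05, an absolute log2 fold change over 1 and 1 CPM in some group were named, at most 8 per line; PLA2G4A was named after its values were seen. The 3 genes of highest correlation were named for DPEP2, PTGDS and ALOX5, as were genes overlapping a member; 1 of these correlated genes is not reported here. Alternatives were RLE or total-count scaling, no filter, DESeq2 1.42.0, limma 3.58.1 on FPKM, fits of 2 groups, the replicate number as a block, each library left out, and levels per exon length. Libraries were tested as unpaired. Correlations of same-numbered deviations were 0.003 to 0.0410, and the highest other-numbered ones were -0.0078 to 0.0298. Between the untreated lines the same-numbered value was the higher for each number.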

Additional observations from a re-analysis of the deposited data

Results flagged for a closer look

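PTGES3 changed by different amounts in the lines: its log2 fold change was lower in MV411 than in MOLM13 by -0.54 ± 0.04 (edgeR quasi-likelihood test of the difference, adjusted p = 6.45e-07), and all treated libraries were below their controls in both lines. CYSLTR1 rose more in MV411, by a difference of 0.56 ± 0.09 (adjusted p = 4.80e-04), and all treated libraries were above their controls in both lines. These were the 2 of 7 named other genes whose difference between the lines passed the test, and the 7 were named for a call within a line. Of the 32 other genes tested, 4 had a higher change in MV411 by this test and 4 a lower one, against 8.85% and 11.8% of all genes. They include COTL1 (-0.17 ± 0.03 in MOLM13, 0.41 ± 0.03 in MV411, difference adjusted p = 2.07e-06). ABCC4 is another (-0.23 ± 0.05 and 0.22 ± 0.05, difference adjusted p = 4.41e-04).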

How the results depend on the processing

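With ALOX5 included, the counts of members that rose (9) and fell (0) in MV411 ranged from 8 to 10 and stayed at 0 over the 20 alternatives. The members' MOLM13 description and the comparison of untreated lines, also with ALOX5, moved by at most 1 gene. The MV411 counts reported above, 8 and 0, leave ALOX5 out. ALOX5 was past the threshold in all 20 alternatives, so the range came from the other members. PTGS2 lost its rise in 7 of the 20. Of the 20 alternatives, total counts only added ALOX5AP and the losses were of PTGS2. Of the other eicosanoid genes, 8 fell in MV411, against 5 with total counts only and 5 on log2(FPKM + 0.1) and log2(FPKM + 1). Leaving out each library in turn gave 6 to 9 for this count, 9 to 12 rising in MV411, and 6 to 9 rising and 6 to 8 falling in MOLM13. Over the other alternatives, 8 to 13 rose in MV411, and 6 to 12 rose and 7 to 9 fell in MOLM13. Total-count scaling moved the median of all genes in MV411 by 0.11 in log2 (the cause was not tested). The log2 fold change of ALOX5AP in MV411 was -0.028 with no filter and -0.027 in the fit of 2 groups, ran from -0.048 to 0.052 with each library left out, and passed at 0.13 with total counts only (adjusted p = 0.0495). The replicate block gave 9 members rising, with ALOX5 included, and 0 falling in MV411, and 9 rising and 8 falling other genes there, with 6 and 7 in MOLM13. Correlations of same-numbered libraries were small (0.003 to 0.0410). With CPM per exon length, 10 of 10 members kept their rank in 3 groups and 8 in treated MOLM13. Both measures divide read numbers by a gene length, so this check cannot decide whether that length is the right one. Depth limits ALOX5, PTGDS, PTGS2 and DPEP2, whose counts fell below 50 in some libraries.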
